A study of Mus musculus with 15 samples.

Results

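Suppressor cells grown from mouse bone marrow (the MDSC arrays) were compared with cells that G-CSF had mobilised into the spleen of treated mice (the arrays coded RB), using 6 of the 15 arrays of the series. All cells came from C57Bl/6 mice and no genetic change is labelled in either group. The 3 MDSC arrays hold Ly6C+CD11b+ myeloid-derived suppressor cells from marrow kept in culture with G-CSF, GM-CSF and IL-13, for a time that the labels do not give. For the 3 RB arrays, the mice were treated with G-CSF and spleen cells were sorted as CD11b+CD34+ after removal of cells with CD4, CD8, Ly6G, B220 or Ter119. The first part of the array titles splits the arrays exactly as the groups do. Culture against direct isolation, marrow against spleen, the sort and this title prefix therefore fall on the same split, and their parts in any difference below cannot be told apart. Of the other 9 arrays, GFW has the same labels as RB and GFK is labelled iNOS knockout. GFE holds spleen cells of this kind cultured for 3 days in Flt3 ligand plus SCF. These 9 arrays are used for levels and for the shared estimate of spread. They also enter the choice of the genes tested and of the probe set for each gene.

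Myeloid-derived suppressor cells are immature myeloid cells that restrain T cells, and in mice they include monocyte-like and granulocyte-like forms. GM-CSF and G-CSF drive myeloid growth and differentiation. IL-13 acts through a receptor made of Il4ra and Il13ra1 and the transcription factor STAT6, and in macrophages it induces a programme that includes the mannose receptor, the chemokines Ccl17, Ccl22 and Ccl24, and arginine transport and metabolism. G-CSF given to an animal releases progenitors and immature myeloid cells from the marrow into blood and spleen. Mouse monocytes fall into classical Ly6C-high cells, which enter inflamed tissue, and Ly6C-low patrolling cells, which depend on the nuclear receptor Nr4a1 and stay in the vessels.

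Signals are log2 RMA values, so a difference of 1 is a factor of 2, and differences are MDSC minus RB throughout. Of 22180 genes on the array, 14822 passed a filter on dim signal and were tested. A gene was called at a limma adjusted p under 0.05. By that rule 4057 genes (27.4%) were higher and 3073 (20.7%) lower in MDSC, in all 48.1% of the genes tested. A called difference of at least 2-fold was found for 1462 higher genes (9.86%) and 975 lower genes (6.58%), and one of at least 8-fold for 108 higher and 105 lower genes. The median difference over all genes tested was 0.04 log2 and the median absolute difference was 0.35. The groups did not overlap for 55.4% of genes (31.3% with all MDSC arrays above, 24.1% with all RB arrays above), and 46.4% were both called and without overlap. Replicates lay close together, with a median SD of 0.12 in MDSC and 0.18 in RB. A fold is written as "at least", and a difference as "at least" or as a bound, where the lower group averaged below the 40th percentile of probe sets, since the array may not resolve levels there. The cells were measured in bulk, so fewer cells of a type and less RNA per cell cannot be told apart.

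**Figure D1:**
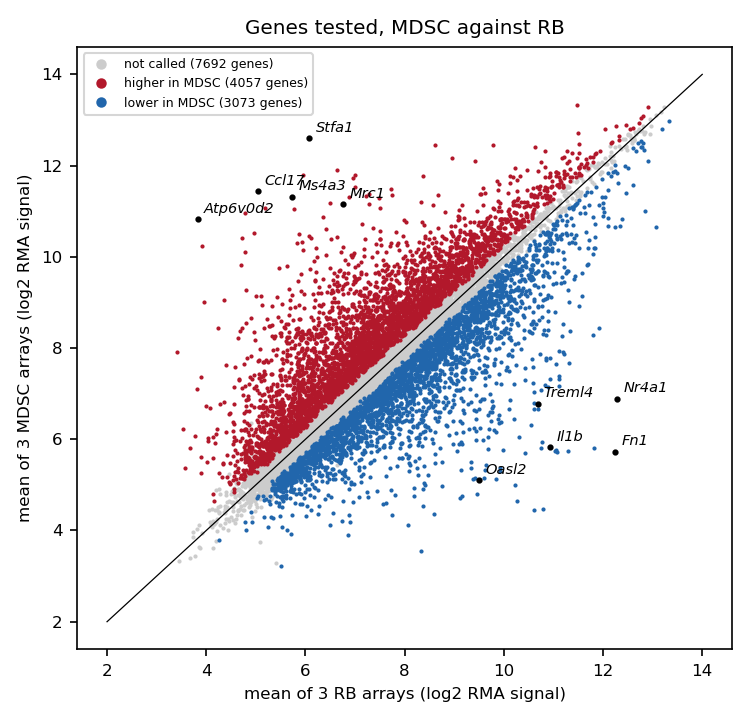
Mean log2 RMA signal of the 3 MDSC arrays (vertical axis) against that of the 3 RB arrays (horizontal axis), one point per gene tested, with the line of equal signal. The 4057 genes called higher in MDSC are red, the 3073 called lower are blue, and 10 genes are named, among them Atp6v0d2 at 10.83 against 3.83 and Fn1 at 5.73 against 12.24.

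The markers of the sorts were read first. Ly6c2, which encodes the Ly6C antigen of monocytes, was among the strongest signals in both groups, at 12.69 ± 0.06 on the MDSC arrays and 12.94 ± 0.07 on the RB arrays (SD, n = 3). The difference of -0.25 (SE 0.17, adjusted p = 0.268) was not called, and its arrays did not overlap. Itgam, the CD11b chain, was 10.28, 10.30 and 10.37 in MDSC and 11.46, 11.41 and 11.26 in RB (-1.06, SE 0.09, adjusted p = 1.37e-07). Cd34 was low on the RB arrays although these cells are labelled CD34+. Its signal there was 5.79, 5.99 and 5.96, below every MDSC array (6.61, 6.83 and 7.20; difference 0.96, SE 0.16, adjusted p = 9.65e-05). The GFW arrays, whose labels match those of RB, had a Cd34 mean of 7.19 ± 0.20 (SD, n = 3), and the GFE arrays 11.28 ± 0.03. The RB level ranked at the 52.5th percentile of probe sets, so the CD34 gate was not seen in the message on these arrays, and surface protein was not measured here. Ly6g, the neutrophil antigen used for depletion, was low in both groups, at 5.80 in MDSC and 6.28 in RB, against 12.19 in GFW. Cd4 and Cd8a were at 5.82 and 5.21 in MDSC and 5.70 and 5.36 in RB, and neither difference was called. Csf1r, the receptor for the monocyte growth factor M-CSF, was lower in MDSC by all arrays (9.14, 9.05 and 9.22 against 11.46, 11.61 and 11.67; -2.44, SE 0.10, adjusted p = 2.32e-11).

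Wide differences lay on both sides. Of the genes higher in MDSC, Atp6v0d2, on chromosome 4, encodes a subunit of the vacuolar proton pump found in osteoclasts and some macrophages, and takes part in cell fusion. Its signal was 10.68, 10.91 and 10.90 in MDSC and 3.53, 4.07 and 3.88 in RB. No array of either group came near the other, and the difference of 7.0 (SE 0.17, adjusted p = 1.65e-13) means at least 128-fold. Ccl17, on chromosome 8, encodes a chemokine for CCR4-bearing T cells. It was 11.66, 11.44 and 11.22 in MDSC and 4.57, 4.63 and 5.91 in RB, at least 84.7-fold higher (6.40, SE 0.27, adjusted p = 2.25e-11). The third RB array stood above the other two for Ccl17, and also for Ccl22 (5.71 against 4.77 and 4.86) and Mrc1 (7.48 against 6.41 and 6.39). The remaining genes among the 15 with the largest higher difference were the stefin genes Stfa1, Csta3, Stfa3, Cstdc4 and Cstdc6, Lipg, Scd1, Ms4a3, Mmp12, Rnase2a, Fads2, Gpnmb and Cyp11a1, with differences from 5.06 to 6.53, some of them bounds. Stefins are cysteine protease inhibitors of myeloid cells. They are near-identical copies in a cluster on chromosome 16, so their probe sets may read each other's messages and the 5 values are not independent. Cyp11a1, the enzyme that starts steroid hormone synthesis, had a second probe set with a difference of -0.09 beside 5.10, a bound.

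Mmp12, macrophage elastase, was 10.62, 10.45 and 10.49 in MDSC and 5.04, 5.22 and 4.64 in RB, at least 46.8-fold higher. Gpnmb, a glycoprotein of endosomes and lysosomes, was 11.99, 11.82 and 11.93 against 6.86, 7.32 and 5.74, 38.6-fold higher. For 11 of these 15 genes, the lowest MDSC array also lay above all 9 GFW, GFE and GFK arrays, and for Atp6v0d2, Ccl17, Ms4a3, Mmp12, Rnase2a, Gpnmb and Cyp11a1 the gap was over 3 log2. Stfa1, Stfa3 and Cstdc4 were as high on GFW arrays as on MDSC arrays (for Stfa1 a mean of 12.52 against 12.61), and Fads2 was as high on GFE arrays (11.10 against 11.04).

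At the other end, Fn1 (fibronectin) was 5.47, 5.70 and 6.02 in MDSC and 12.28, 12.25 and 12.21 in RB, the largest lower difference at -6.51 (SE 0.13, adjusted p = 1.08e-14), 91.4-fold. F13a1, the A chain of coagulation factor XIII, and Thbs1, thrombospondin, both made by monocytes, differed by -5.99 and -5.56. Il1b, on chromosome 2, encodes the cytokine interleukin-1 beta. Its signal was 5.29, 6.06 and 6.11 in MDSC and 10.89, 10.89 and 11.02 in RB (-5.12, SE 0.16, adjusted p = 1.18e-12), 34.7-fold lower. Treml4, on chromosome 17, encodes a receptor of patrolling monocytes and some splenic phagocytes. It was 6.88, 6.66 and 6.80 against 10.63, 11.00 and 10.40 (-3.90, SE 0.15, adjusted p = 1.11e-11), 14.9-fold lower. All 3 RB arrays were high for both genes and all 3 MDSC arrays low. The 15 largest lower differences also held Ms4a4c, Adgre4, Ms4a8a, Nr4a1, Ms4a6b, Klra2, Ifi209, Nxpe4, Ace, Oas2 and Ifi213, from -6.32 to -4.77, some of them bounds. For 13 of these 15 genes the RB arrays lay above all 9 other arrays as well, and for Fn1, F13a1, Ms4a8a, Thbs1, Nxpe4, Ace and Ifi213 by over 3 log2. Treml4 had means of 10.45 in GFW, 11.19 in GFK and 6.46 in GFE. Il1b was higher in all 9 than in MDSC, with means of 12.95 in GFW, 12.89 in GFK and 9.39 in GFE, and Oas2 was 11.01 in GFW.

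**Figure D2:**
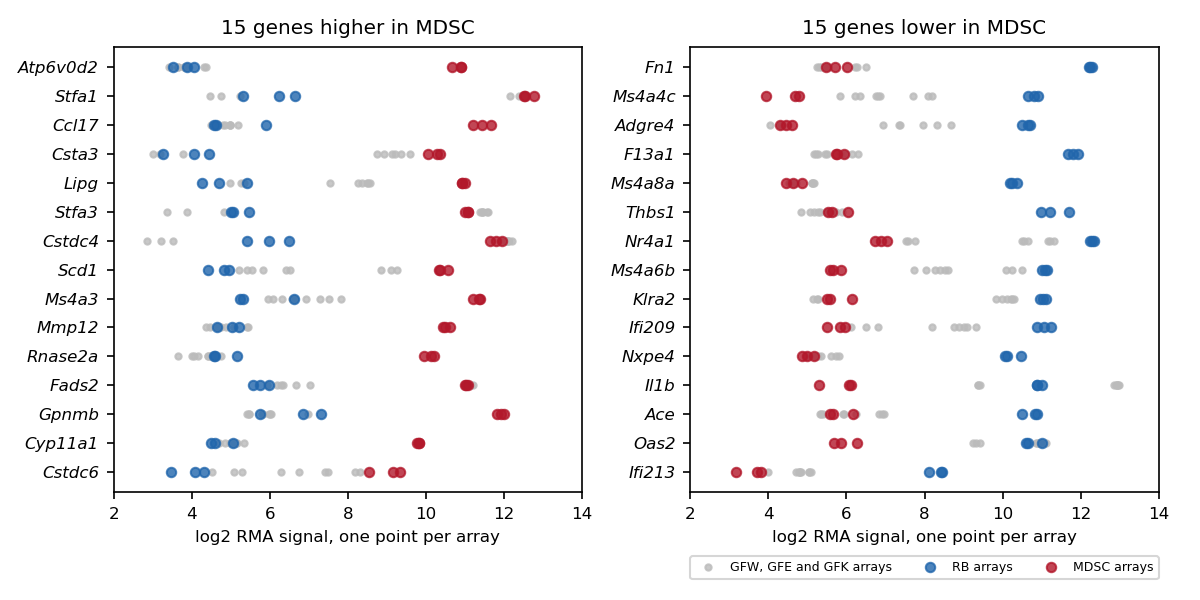
Log2 RMA signal on each array of the 15 genes with the largest higher difference (left) and lower difference (right) in MDSC, with one point per array, MDSC in red, RB in blue and the other 9 arrays in grey. MDSC and RB points do not overlap for any of the 30 genes, by the rule that chose them, and for Atp6v0d2 and Ccl17 the grey points lie with RB.

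Genes of the IL-4 and IL-13 response were mostly higher in MDSC. The culture of these cells held IL-13, and its part in the differences was not tested. Of 24 listed genes that passed the filter, 16 were higher and 3 lower, with a median difference of 1.03. Counts and medians for this and the other lists cover the listed genes that passed the filter. Over all genes tested, 27.4% were called higher and 20.7% lower. A dim gene that passed through the MDSC arrays alone, or through the RB arrays alone, had to differ between these groups. One that passed through the other 9 arrays did not have to. Mrc1, the mannose receptor, was 11.15, 11.16 and 11.13 in MDSC and 6.41, 6.39 and 7.48 in RB (4.38, SE 0.30, adjusted p = 7.06e-09). Ccl22, which shares its receptor with Ccl17, was 9.45, 9.09 and 8.90 against 4.77, 4.86 and 5.71, at least 16.4-fold higher. Mgl2, a galactose-binding lectin, was at least 11.9-fold higher (3.57), and Slc7a2, an importer of arginine, at least 9.33-fold (3.22). Cdh1, E-cadherin, differed by 3.03 (its other probe set by 4.0) and Ccl24, an eosinophil chemokine, by 2.61. Arg1, the arginase of this response, was also higher but by less, at 6.71, 6.29 and 7.15 in MDSC and 6.15, 5.85 and 5.40 in RB, a difference of 0.92 (SE 0.20, adjusted p = 0.00116) at a level near the middle of the array. Retnla and Chil4 stayed below the filter, at 4.29 and 4.19 in MDSC. Chil3 was high in both groups (12.49 and 12.58; -0.09, adjusted p = 0.804). Tgm2, transglutaminase, was lower (-1.70), as was Klf4 (-0.60).

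The Ccl17 promoter is shown because it belongs to the highest gene of this list and holds the letters that STAT6 recognises. The window runs from 250 bases before to 50 after the start in RefSeq for GRCm38.p6, at chr8:94810203-94810502, plus strand, and capitals mark the match to TTC and GAA with 4 bases between, which begins 154 bases before the start.
Ccl17: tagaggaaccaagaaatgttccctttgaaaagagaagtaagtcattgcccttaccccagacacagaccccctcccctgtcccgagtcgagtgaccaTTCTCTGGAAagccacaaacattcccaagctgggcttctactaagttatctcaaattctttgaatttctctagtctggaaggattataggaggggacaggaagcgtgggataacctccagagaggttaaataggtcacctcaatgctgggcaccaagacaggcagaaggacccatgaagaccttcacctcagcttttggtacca
That motif reads alike on both strands. It was found in 5 of the 15 list genes with a RefSeq promoter (33.3%), in 6.43% of tested genes with a window and in 6.95% of all 32851 promoter windows. The 5 were Ccl17, Clec7a, Pdcd1lg2, Fcer2a and Il1rn, and of these Clec7a (-0.53) and Fcer2a (-0.17) were not called. A match describes letters, not binding.

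Receptors of myeloid cytokines were mostly lower in MDSC. The list joins receptors for the cytokines of the culture with those of other myeloid growth factors, and of its 19 tested genes 5 were higher and 13 lower, with a median of -0.77. Il13ra1 was 7.53, 7.29 and 7.70 in MDSC and 10.14, 10.23 and 9.74 in RB (-2.53, SE 0.14, adjusted p = 3.42e-10), and Il4ra was lower by all arrays (-0.83). Csf3r, the G-CSF receptor, was 7.99, 7.86 and 8.03 against 10.21, 10.24 and 10.06 (-2.21, SE 0.10, adjusted p = 3.89e-11). Il6ra differed by -2.57. For GM-CSF, the shared beta chain Csf2rb was higher (0.64) and the alpha chain Csf2ra lower (-0.60). Kit, the stem cell factor receptor, was the exception in size, at 8.94, 8.81 and 9.14 in MDSC and 5.83, 4.95 and 5.77 in RB (3.44, SE 0.18, adjusted p = 2.27e-10). Its mean was higher still on GFW (11.43) and GFE (10.85) arrays.

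JAK, STAT and feedback genes downstream of these receptors split in a like manner, with 4 of 18 higher and 10 lower (median -0.45). Cish, induced by STAT5, was 10.82, 10.70 and 10.62 in MDSC and 6.76, 7.05 and 7.60 in RB (3.57, SE 0.16, adjusted p = 6.73e-11). Socs1 (1.98) and the survival gene Bcl2l1 (1.38) were also higher. Socs3, a target of STAT3, was lower (-1.06), as were Stat3 itself (-1.30), Stat2 (-1.42), Tyk2 (-1.26) and Stat6 (-0.74). Socs2 had probe sets at 0.45 and 3.86, and the value used here was the lower one, whose call was lost without MDSC replicate 1 or RB replicate 3 (highest adjusted p = 0.0726).

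**Figure D3:**
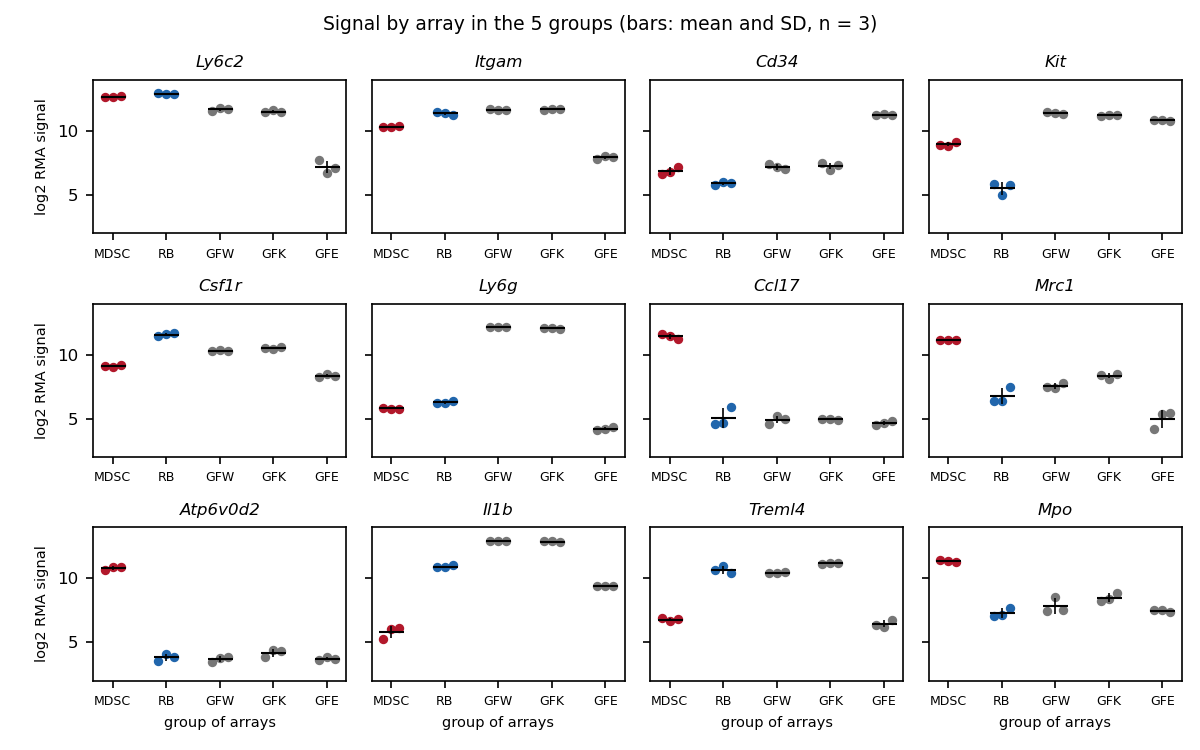
Log2 RMA signal of 12 genes on each of the 15 arrays by group, with points for arrays and bars for the mean and SD of 3 arrays. Ccl17, Mrc1, Atp6v0d2 and Mpo are highest on the MDSC arrays, Cd34 is lowest on the RB arrays, and Ly6g is high on GFW and GFK arrays.

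Endosomal acidification genes were higher in MDSC beyond Atp6v0d2. Of 17 subunits and accessory genes of the V-ATPase, the pump that acidifies lysosomes, 11 were higher and 1 lower (2 without MDSC replicate 3), with a median of 0.77. Atp6v0a1 was 10.38, 10.32 and 10.24 in MDSC and 7.89, 8.13 and 7.58 in RB (2.45, SE 0.13, adjusted p = 2.45e-10), and Atp6v1c1 (1.54) and Atp6v1d (1.11) followed. Atp6v0d1, the common form of the subunit that Atp6v0d2 also encodes, differed by 0.63 (10.46, 10.55 and 10.64 against 9.94, 10.00 and 9.82). Tcirg1 was lower (-0.35). Other lysosomal genes did not move together. Of 28 hydrolases and membrane proteins, 12 were higher and 8 lower (median -0.05). These counts moved to 10 and 12 after quantile normalisation applied again, 12 and 11 with eBayes trend and robust, and 9 and 7 with the 6 arrays alone. Cd63, a tetraspanin of late endosomes, was 11.85, 11.84 and 11.69 against 6.86, 6.69 and 7.46 (4.79, SE 0.15, adjusted p = 1.41e-12). Ctsk differed by 1.87, Ctsd by 1.05 and the cholesterol exporter Npc1 by 1.48 (its other probe set by 0.37), whereas Ctsh (-1.06), Tfe3 (-0.93) and Npc2 (-0.64) were lower.

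The Atp6v1a promoter (chr16:44139210-44139509, minus strand, GRCm38.p6) is shown as one with the core of the CLEAR element, TCACGTG, which the lysosomal factor TFEB recognises. In capitals are a match on each strand that overlap, beginning 132 and 131 bases before the start.
Atp6v1a: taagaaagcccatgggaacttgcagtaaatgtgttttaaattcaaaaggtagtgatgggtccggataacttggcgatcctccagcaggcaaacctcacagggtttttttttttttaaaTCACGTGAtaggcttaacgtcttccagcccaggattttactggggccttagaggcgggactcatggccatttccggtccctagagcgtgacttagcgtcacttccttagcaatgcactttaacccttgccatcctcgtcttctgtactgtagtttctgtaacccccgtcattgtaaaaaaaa
The core was found in 4 of 11 V-ATPase promoters (36.4%), 4 of 24 lysosomal ones (16.7%), 3.77% of all windows and 6.32% of tested genes with a window. The V-ATPase matches were Atp6v1a (0.81), Atp6v0d1 (0.63), Atp6v0e (0.42) and Atp6v0b (0.12, not called). The lysosomal ones were Ctsd (1.05), Mcoln1 (0.35), Lamp1 (-0.05, not called) and Ctsa (-0.26). Atp6v0d2 and Atp6v0a1, with the largest V-ATPase differences, were not among the matches. Tfeb itself was not called (-0.16).

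Atp6v0d2 also belongs to the genes of osteoclasts and fusing macrophages, and these were divided. Of 14 such genes, 7 were higher and 7 lower, and the median of 0.01 fell below 0 under 5 alternatives. The call of Src, a kinase of osteoclasts (0.25, adjusted p = 0.0485), was lost in 13 of the 15 alternatives (highest adjusted p = 0.17), which left at most 6 higher genes in those. The tetraspanins Cd9 (3.62, its other probe set 0.35) and Cd81 (1.76), Ctsk and the integrin chain Itgb3 (0.74) were higher. Acp5, the tartrate-resistant phosphatase (-1.82), the fusion gene Ocstamp (-1.60), Mmp9 (-1.36), the RANK receptor Tnfrsf11a (-1.16) and the osteoclast factor Nfatc1 (-1.07) were lower. Among matrix proteases and inhibitors, 7 of 13 were higher and 3 lower (median 0.42), led by Mmp12 and by Plau, urokinase (2.10).

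Lipid genes formed one of the clearest blocks. Of 17 cholesterol synthesis genes, all were higher, with differences from 0.86 to 3.81 and a median of 1.87. Fdps, which makes farnesyl diphosphate, was 11.33, 11.23 and 11.30 in MDSC and 7.79, 7.32 and 7.34 in RB (3.81, SE 0.17, adjusted p = 4.09e-11). Sqle, squalene epoxidase, was 10.24, 9.94 and 10.15 against 6.94, 6.39 and 6.81 (3.39, SE 0.17, adjusted p = 1.86e-10). Cyp51 differed by 3.01, Lss by 2.58 and Hmgcs1 by 1.93. The regulators Srebf2 (0.95) and Insig1 (0.94) were higher by less. Fatty acid genes followed, with 17 of 22 higher and 2 lower (median 1.30). Scd1, the desaturase of saturated fatty acids, was 10.33, 10.37 and 10.56 in MDSC and 4.82, 4.95 and 4.42 in RB, at least 51.4-fold higher. Fads2 was 11.09, 11.03 and 11.00 against 5.97, 5.58 and 5.74, 38.7-fold higher. Fabp4, a fatty acid carrier of macrophages and adipocytes, was 13.5-fold higher (3.75), Fasn differed by 2.99, Lpl by 1.99 and the scavenger receptor Cd36 by 1.66. Pparg, a nuclear receptor that controls several of these genes, was 10.32, 10.19 and 10.44 against 7.82, 8.31 and 7.94 (2.29, SE 0.20, adjusted p = 1.17e-07). The cholesterol exporter Abca1 (-1.49, a bound) and the scavenger receptor Msr1 (-1.22) were lower. A short site for SREBP, TCAC and CCAC with 1 base between, lay in 1 of 13 cholesterol synthesis promoters, that of Hmgcs1. The site was in 1.47% of tested genes with a window and 1.24% of all windows.

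Cell cycle genes were higher in MDSC without exception in both lists used. All 19 mitosis genes (median 2.81) and all 19 DNA replication genes (median 2.07) were called higher, with every MDSC array above every RB array, and all stayed called under each alternative other than the test against a 1.5-fold difference. Cdk1, the kinase that starts mitosis, was 9.92, 10.04 and 10.19 in MDSC and 6.21, 6.28 and 6.77 in RB (3.63, SE 0.20, adjusted p = 6.31e-10). Bub1 differed by 3.44, Birc5 by 3.13 and Plk1 by 3.11. Rrm2, a subunit of the enzyme that makes deoxynucleotides, was 11.01, 11.20 and 10.97 against 7.38, 7.29 and 7.83 (3.56, SE 0.18, adjusted p = 1.43e-10), and Mcm6 differed by 2.74. Mki67, the common proliferation marker, was 10.69, 10.82 and 10.77 against 8.43, 8.08 and 8.54 (2.41, SE 0.17, adjusted p = 7.62e-09). The mean over the mitosis list was 9.64, 9.68 and 9.77 on the MDSC arrays and 6.95, 6.82 and 7.21 on the RB arrays.

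The Cdk1 promoter (chr10:69352863-69353162, minus strand, GRCm38.p6) is shown for the cell cycle element CHR, TTTGAA, in capitals, which begins 71 and 15 bases before the start.
Cdk1: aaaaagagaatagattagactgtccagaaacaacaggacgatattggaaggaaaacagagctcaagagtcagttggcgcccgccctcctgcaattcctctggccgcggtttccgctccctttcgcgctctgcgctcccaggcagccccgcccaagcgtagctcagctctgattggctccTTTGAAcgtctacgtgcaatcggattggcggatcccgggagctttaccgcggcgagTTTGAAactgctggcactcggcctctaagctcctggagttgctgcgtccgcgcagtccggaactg
On either strand the letters were in 12 of 16 mitosis promoters (75%) and 2 of 16 DNA replication promoters (12.5%). They were in 14.7% of tested genes with a window and 17.9% of all windows.

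Genes of energy and amino acid metabolism were higher as well. Of 20 glycolysis and hypoxia genes, 14 were higher (median 0.78), with Egln3 at least 2.95 log2 higher, Tpi1 by 1.66 and Pgam1 by 1.47. With the 6 arrays alone 12 were higher. The calls of Gapdh and Pkm were lost there and in other alternatives (highest adjusted p = 0.113 and 0.458). Of 28 respiratory chain genes, 18 were higher (median 0.58), led by Ndufa9 (1.39) and Cyc1 (1.26). In neither list was a gene called lower, although quantile normalisation applied again gave 2 lower glycolysis genes and 1 lower respiratory gene. A single glycolysis gene was also called lower with the filter at the 60th percentile, with each array minus its median, with eBayes trend and robust, and without MDSC replicate 1 or 2. Amino acid and stress response genes were higher in 15 of 17 and lower in 1 (median 0.99). Shmt2, mitochondrial serine hydroxymethyltransferase, was 10.39, 10.10 and 10.14 in MDSC and 7.18, 6.16 and 6.94 in RB (3.46, SE 0.22, adjusted p = 3.32e-09). Slc7a5, an importer of large neutral amino acids, differed by 3.28, Asns by 2.62 and Psat1 by 2.11. Atf3 was the lower one (-2.01).

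Granule genes of immature neutrophils and monocytes were high in MDSC. Of 12 primary granule genes, which are made at the promyelocyte stage, 10 were higher and none lower (median 2.54), although Ctsc, at -0.19 and not called here, was called lower in 2 alternatives. Mpo, myeloperoxidase, was 11.44, 11.37 and 11.32 in MDSC and 7.05, 7.12 and 7.72 in RB (4.08, SE 0.25, adjusted p = 1.72e-09). Elane, neutrophil elastase, was 11.44, 11.38 and 11.19 against 7.32, 6.90 and 7.46 (4.11, SE 0.22, adjusted p = 4.66e-10). Ctsg (4.53), Cst7 (4.20), Prtn3 (2.89) and Cebpe, a factor of granule gene expression (2.2), were higher too. Ms4a3, which marks granulocyte and monocyte progenitors, was 11.35, 11.38 and 11.22 against 5.24, 5.32 and 6.63.

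Genes of neutrophils and later granules were mostly higher. Of 20, 12 were higher, 4 lower and 4 not called (median 1.0). Ltf, lactoferrin, was 11.09, 11.30 and 11.22 against 8.26, 8.07 and 8.66 (2.87, SE 0.13, adjusted p = 8.53e-11), and Ngp (2.17), Lcn2 (1.81) and Camp (1.35) were higher. The stefin Stfa1 (6.53) belongs to this list too, and S100a9 was higher (1.23). The lower ones were Retnlg at 4.05, 3.99 and 4.30 in MDSC against 8.05, 8.10 and 8.07 (-3.96, a bound), Csf3r at -2.21, Mmp9 at -1.36 and Ly6g at -0.48. Mmp8, a neutrophil collagenase, was not called (-0.10). Of 16 progenitor genes, 9 were higher and 2 lower (median 0.34). The higher count fell to 6 without MDSC replicate 2 and to 7 without RB replicate 1 or 3. Among the calls lost were those of Cd93 (highest adjusted p = 0.114) and Lmo2 (highest adjusted p = 0.282). Kit, Myb (3.38, its other probe set 2.05) and Erg (at least 2.17) led, and Flt3 (-1.69) and Meis1 (-0.48) were lower.

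Monocyte genes fell on the other side. Of 14 classical monocyte genes, 11 were lower and 1 higher (median -1.22), and of 15 patrolling monocyte genes, 13 were lower and 2 higher (median -2.66). Ccr2, the receptor that brings classical monocytes out of the marrow, was 9.12, 8.85 and 9.06 in MDSC and 11.31, 11.30 and 11.35 in RB (-2.31, SE 0.17, adjusted p = 1.81e-08). Cd177 (0.59) was the higher one of the classical list. Nr4a1, on which patrolling monocytes depend, was 7.04, 6.89 and 6.73 against 12.28, 12.25 and 12.34 (-5.40, SE 0.11, adjusted p = 1.08e-14). Cx3cr1, the fractalkine receptor, was 7.06, 6.94 and 6.41 against 10.42, 10.48 and 10.91 (-3.80, SE 0.19, adjusted p = 1.52e-10). Ace, angiotensin-converting enzyme, was 5.65, 5.57 and 6.17 against 10.50, 10.84 and 10.88 (-4.94), Adgre4 was lower by at least 71.8-fold, and the integrin chain Itgal differed by -3.34. Cd36 (1.66) and Pglyrp1 (0.71) were the patrolling list genes that were higher. The RB arrays thus carried high signals for markers of both monocyte kinds, with Ly6c2 and Ccr2 beside Nr4a1, Treml4 and Cx3cr1. Nr4a1 and Klf2 also belong to the immediate early genes below.

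Of 17 tissue macrophage genes, 13 were lower and none higher (median -0.90). C1qb, a complement subunit, was 5.97, 6.13 and 6.55 against 9.04, 9.17 and 9.68 (-3.08, SE 0.19, adjusted p = 2.11e-09), and Spic, a factor of splenic red pulp macrophages (at least 3.05 lower), and Siglec1 (-2.58) were lower. Adgre1, the F4/80 antigen, was 9.60, 9.56 and 9.79 against 10.76, 10.61 and 10.55 (-0.99). Over all measured genes of the list, the mean was 6.74 to 6.89 on MDSC arrays and 7.77, 7.85 and 8.23 on RB arrays, where the third array was highest. Macrophage markers therefore moved with the monocyte genes, and their part in the difference was not tested. Of 14 dendritic cell genes, 4 were higher, among them Cd24a (1.43) and Ccr7 (1.37), and 6 lower, among them Dpp4 (-3.43, a bound) and Irf8 (-2.10), with a median of -0.30. The shares were 28.6% higher, near the 27.4% of all genes tested, and 42.9% lower, against 20.7%.

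Inflammatory genes were mostly lower in MDSC. Of 19 cytokine and NF-kB genes, 14 were lower, 2 higher and 3 not called (median -1.67). Ptgs2, the inducible cyclooxygenase, was 6.26, 5.49 and 5.57 in MDSC and 9.95, 10.03 and 10.00 in RB (-4.22, SE 0.16, adjusted p = 6.92e-12). Il18 was 6.30, 5.89 and 6.96 against 9.87, 9.86 and 10.14 (-3.57), and the NF-kB feedback genes Nfkbiz (-3.26), Tnfaip3 (-2.68) and Nfkbia (-1.92) were lower. Nlrp3, the inflammasome sensor, differed by -2.05. Tnf was 9.91, 9.94 and 10.21 against 8.65, 8.80 and 8.61 (1.34, SE 0.13, adjusted p = 3.53e-07), and the receptor antagonist Il1rn was also higher (0.51). Il6 and Il10 were lower (-1.91 and -1.67, both bounds), from RB levels of 6.26 and 6.12.

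Chemokines moved in both directions. Of 19, 10 were higher, 5 lower and 4 not called (median 0.80). All 10 higher genes were CC chemokines, including the monocyte attractants Ccl7 (3.87), Ccl12 (at least 3.47) and Ccl2 (1.76), and Ccl4 (1.78) and Ccl5 (1.57). Those lower were Cxcl2, Cxcl9, Cxcl10, Cxcl1 and Ccl9. Cxcl2, a neutrophil attractant, was 7.14, 6.84 and 7.74 against 10.59, 10.85 and 10.34 (-3.35, SE 0.18, adjusted p = 2.68e-10). Among 14 chemoattractant receptors, 3 were higher, with C3ar1 at 2.11, and 5 lower, with Cx3cr1, Ccrl2 (-3.16), Ccr2, Fpr2 (-1.50) and S1pr5 (-0.82). Their median of -0.04 turned positive without MDSC replicate 2 (0.04) or RB replicate 2 (0.02). The shares of these receptors were 21.4% higher and 35.7% lower, against 27.4% and 20.7% of all genes tested. Cxcr4, which holds cells in the marrow, was 10.59 and 10.63 and was not called (-0.05).

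Sensors of microbes were lower. Of 16 Toll-like receptor genes and partners, 13 were lower and 1 higher (median -1.15). Cd14 was 7.76, 7.56 and 7.88 in MDSC and 10.74, 10.89 and 10.90 in RB (-3.11, SE 0.16, adjusted p = 1.91e-10). The nucleic acid sensors Tlr9 (-2.99), Tlr7 (-2.24) and Tlr13 (-1.71) and their chaperone Unc93b1 (-1.60) were lower. Tlr4, the endotoxin receptor, was the higher one (1.22). C-type lectins were mixed, with 6 of 15 higher and 6 lower (median -0.30), led by Mrc1, Mgl2 and Clec5a (2.66) on one side and Clec4a1 (-3.51) and Clec4a3 (-1.43) on the other. Of 12 Fc and complement receptor genes, 2 were higher and 5 lower (median -0.22), with Fcgr1 (-1.78) and Fcgr4 (-1.02) among the lower. The lower count was 3 with the 6 arrays alone and without MDSC replicate 1, MDSC replicate 2 or RB replicate 2. As reported, 16.7% of this list were higher and 41.7% lower, against 27.4% and 20.7% of all genes tested.

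Interferon response genes were lower in MDSC without exception in the type I list, 10 of 10, with a median of -2.54. Oasl2 was 5.0, 5.10 and 5.22 in MDSC and 9.29, 9.40 and 9.83 in RB (-4.40, SE 0.13, adjusted p = 6.34e-13), at least 21.1-fold lower. Irf7, the factor that amplifies type I interferon, was 6.55, 6.73 and 6.08 against 9.75, 9.69 and 10.25 (-3.44, SE 0.16, adjusted p = 1.03e-10). Isg15, a ubiquitin-like protein, was 5.44, 5.34 and 5.78 against 8.14, 8.0 and 8.50 (-2.69), and Zbp1 differed by -3.06. Of 14 interferon gamma response genes, 11 were lower and 1 higher (median -1.63). Cxcl9 was 5.53, 5.56 and 5.0 against 8.13, 7.50 and 9.14, at least 7.41-fold lower, and the guanylate-binding proteins Gbp3 (-2.67) and Gbp5 (-2.34, a bound) and the peptide transporter Tap1 (-1.98) were lower. The third RB array was the highest in both lists, with means of 8.80 against 8.16 and 8.27 for type I genes and 8.53 against 7.98 and 7.97 for gamma genes. Without it, 10 and 11 genes were still called lower.

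The Isg15 promoter (chr4:156200769-156201068, minus strand, GRCm38.p6) is shown for the core of the interferon-stimulated response element, GAAA and GAAA with 2 bases between, of which 3 matches overlap in the capitals, beginning 78, 72 and 66 bases before the start.
Isg15: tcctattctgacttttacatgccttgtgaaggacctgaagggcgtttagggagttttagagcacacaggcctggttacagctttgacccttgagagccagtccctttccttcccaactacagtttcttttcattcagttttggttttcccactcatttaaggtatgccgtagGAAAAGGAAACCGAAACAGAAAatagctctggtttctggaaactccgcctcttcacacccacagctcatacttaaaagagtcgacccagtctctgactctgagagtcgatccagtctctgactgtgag
Searched on both strands, the core was found in 4 of 7 type I list promoters (57.1%), those of Ifit1, Ifit3, Isg15 and Rsad2. It was in 3.63% of tested genes with a window and 3.44% of all windows.

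Immediate early genes, which respond to stimulation and also to tissue handling, were lower in MDSC in 19 of 21 cases and higher in 1 (median -2.01). Fos was 6.16, 6.25 and 6.53 in MDSC and 10.53, 10.54 and 10.59 in RB (-4.24, SE 0.11, adjusted p = 2.15e-13). Fosb (-4.21), Dusp1 (-3.28) and Egr1 (-2.11) were lower. The heat shock gene Hspa1b was 4.90, 4.55 and 4.98 against 9.35, 8.02 and 10.98, an RB spread of 1.48 (SD, n = 3) and still at least 25-fold lower in MDSC. Egr2, also an IL-4 target of macrophages, was higher (1.71). Cells of the RB arrays were taken directly from spleen and those of the MDSC arrays from culture, and the part of cell isolation in this list, and in Il1b, Nr4a1, Cxcl2 and the NF-kB genes that move with it, was not tested.

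**Figure D4:**
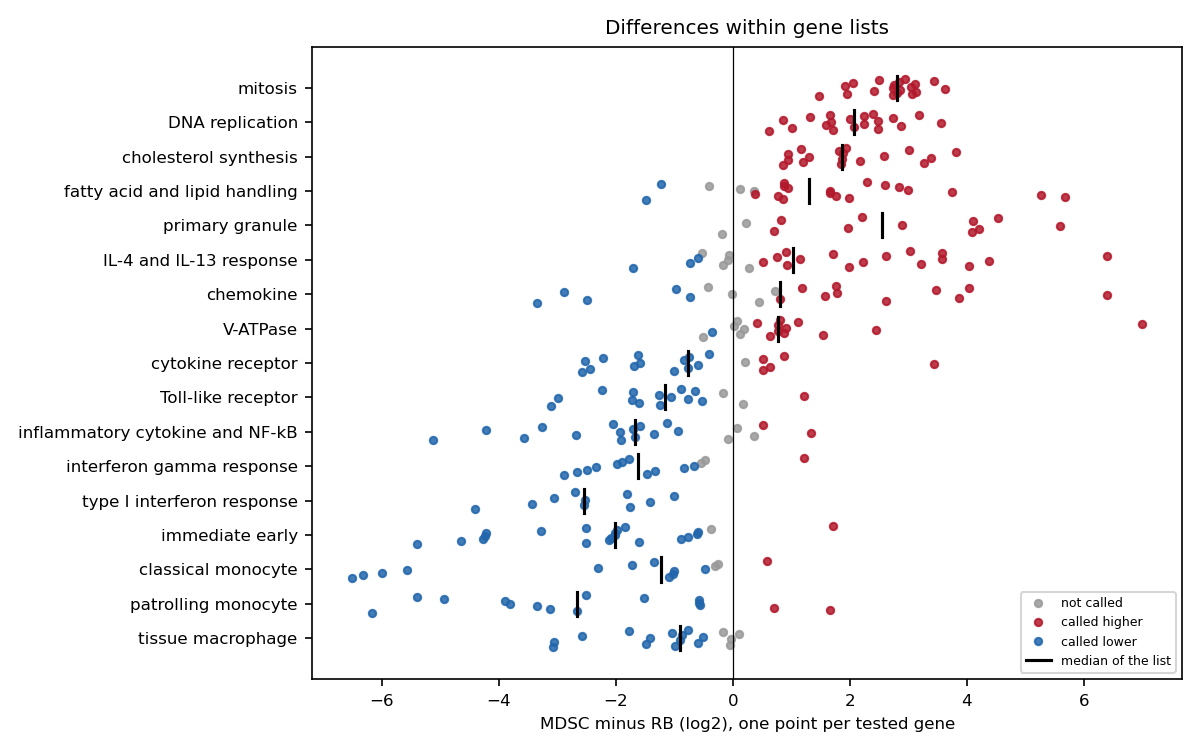
Difference in log2 RMA signal, MDSC minus RB, for each tested gene of 17 gene lists, with called genes in red (higher) or blue (lower), uncalled genes in grey and the list median as a bar. All mitosis, DNA replication and cholesterol synthesis genes lie to the right of 0, and all type I interferon genes to the left.

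Genes by which suppressor cells act on T cells were not uniformly higher. Of 21 tested, 10 were higher and 6 lower (median 0.35). Nos2, the inducible nitric oxide synthase, was 6.19 ± 0.06 in MDSC and 5.98 ± 0.21 in RB (SD, n = 3; 0.21, adjusted p = 0.16). Arg2 differed by 1.11, the cystine importer Slc7a11 by 0.99 (its other probe set by 2.07), the ecto-enzyme Nt5e by at least 1.73 and the alarmin S100a9 by 1.23 (12.73, 12.75 and 12.69 against 11.54, 11.35 and 11.58). Lgals1, a galectin that binds T cells, differed by 0.79. Ptgs2, Tgfbi (-1.60), Entpd1 (-0.76) and Hmox1 (-0.61) were lower. Of 5 NADPH oxidase genes, Cyba (0.54) and Ncf1 (0.49) were higher and Cybb (-0.91) and Ncf4 lower (median -0.12). The Ncf4 call was lost with the 6 arrays alone and without MDSC replicate 1, MDSC replicate 3 or RB replicate 1 (highest adjusted p = 0.0778).

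Ligands for T cell checkpoints and co-stimulation went different ways. Of 15, 4 were higher and 9 lower (median -0.45). Cd274, which encodes PD-L1, was 8.70, 8.37 and 8.56 in MDSC and 6.81, 7.44 and 7.73 in RB (1.22, SE 0.18, adjusted p = 2.67e-05), and Pdcd1lg2, which encodes PD-L2, was higher (0.91). The co-stimulatory ligand Cd86 was 6.88, 6.63 and 7.13 against 9.65, 9.46 and 9.54 (-2.67, SE 0.21, adjusted p = 2.9e-08), and Cd40 (-2.10), the checkpoint Vsir (-1.79) and Cd80 (-1.06) were lower. MHC class II genes were lower in 8 of 13 and higher in 2 (median -0.62). H2-Ab1 was 9.87, 9.68 and 9.90 against 10.33, 10.71 and 11.28 (-0.95, SE 0.17, adjusted p = 0.00021), while the peptide-loading genes H2-DMb2 (1.29) and H2-Oa (0.86) were higher. The call of H2-Eb1 (-0.72, adjusted p = 0.0311) was lost with the 6 arrays alone and without MDSC replicate 1, 2 or 3 or RB replicate 3 (highest adjusted p = 0.164). The H2-Aa call was lost with the 6 arrays alone (adjusted p = 0.0529), where 6 genes of the list were lower.

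Among 27 myeloid transcription factors, 11 were higher and 8 lower, with a median of 0.11 that was -0.02 after quantile normalisation applied again. These shares were 40.7% and 29.6%, against 27.4% and 20.7% of all genes tested. Tfec, of the Mitf family (2.68), Bhlhe41 (at least 2.41), Pparg, Myc (2.23) and Cebpe were highest in difference. Irf8, needed for monocytes and dendritic cells, was 8.53, 8.48 and 8.81 against 10.71, 10.63 and 10.77 (-2.10, SE 0.12, adjusted p = 1.13e-09), and Nfil3 (-1.33), Rara (-0.97) and Spi1 (-0.54) were lower. Eicosanoid genes were higher in 8 of 16 and lower in 6 (median 0.28). Hpgds, which makes prostaglandin D, was 8.73, 8.77 and 9.10 against 6.12, 5.61 and 6.22 (2.88, SE 0.17, adjusted p = 1.04e-09), and the leukotriene genes Ltc4s (2.02), Alox5 (1.69) and Lta4h (1.03) were higher. Pla2g7, which breaks down platelet-activating factor, was 6.17, 6.38 and 6.78 against 10.27, 10.47 and 9.86 (-3.75, SE 0.17, adjusted p = 5.02e-11), beside Ptgs2 and Cysltr1 (-2.02).

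Markers of cells that a marrow culture or a spleen sort could also hold were read in the same way. Of 8 eosinophil genes listed, 6 passed the filter and 4 were higher. Of the 7 measured, 5 averaged above the 40th percentile in MDSC and 1 in RB. A member that passed through the MDSC arrays alone had to differ, so the count is no test of cell content. With the filter at the 60th percentile, 3 were tested and 1 was higher. Prg2, the major basic protein, was 9.41, 8.78 and 8.67 in MDSC and 5.21, 5.03 and 5.12 in RB (at least 14.3-fold, 3.84, SE 0.28, adjusted p = 1.13e-08), and Ear6 differed by at least 2.75. Siglecf was 5.88 and 5.72 and was not called (0.16), Epx reached 5.93 and Il5ra 4.46. The mean of the eosinophil list was 5.88 to 6.19 on MDSC arrays and 4.75 to 4.89 on RB arrays. Of 11 mast cell and basophil genes, 4 passed the filter, of which Mcpt8 (2.44) and Cpa3 (at least 2.09) were higher and Hdc lower (-1.50). Mcpt8, a basophil protease, was 8.14, 8.04 and 8.12 against 5.67, 5.48 and 5.81, while Fcer1a, the IgE receptor chain, was 3.37 and 3.67 and Ms4a2 5.10 and 5.12. The part of such cells in the MDSC signals was not tested.

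Lymphocyte, erythroid and stromal lists had median levels near the middle of the array or below it in both groups, but some members were high. The highest stromal level was 12.41 in MDSC and 12.77 in RB. The highest B cell level was 9.38 and 10.63, and the highest T and NK cell level 8.37 and 6.35. Of 8 B cell and plasma cell genes, none was higher and 3 were lower (median -0.10), Ighm at -1.25 from 10.63 in RB (the differences of its 7 probe sets reached up to 0.03), Cd79b at -0.88 and Jchain, whose call was lost without MDSC replicate 1 or RB replicate 3 (highest adjusted p = 0.116). Ms4a1 was 4.07 and 4.11. Of 6 T and NK cell genes that passed of 10, Nkg7 was higher (2.02) and Klrd1 lower (-1.06, a bound), and Cd3e was 5.15 and 5.07. Of 7 erythroid and megakaryocyte genes, 1 was higher, Car2 (at least 2.01). Of 9 stromal and endothelial genes, 2 were higher, Pecam1 (2.24) and Kdr (0.53), and Vim was lower (-0.37), while Col1a1 (6.21 and 5.85) was not called. The stromal shares were 22.2% higher and 11.1% lower, and those of T and NK cell genes 16.7% each way. All genes tested gave 27.4% and 20.7%.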

How the data were processed

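Total RNA (6 ug per array) was labelled as biotinylated cRNA and hybridised to single-colour Affymetrix arrays, 1 per sample, per the labels' protocols. The deposited values are log2 signals that the authors made with RMA in oligo, per the submitters' processing notes, with versions not given in the sources used here. RMA aligns array distributions, so differences are relative to the other genes of an array. Array medians were 5.52 to 5.72, and the 3 arrays per group limit the precision. Whether replicates came from different mice or cultures is not in the labels, so p-values may reflect technical spread only.

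Of 41345 probe sets, 23521 had 1 gene symbol in the platform annotation and were used, 1814 had several and 16010 none. By gene identifier, 23328 matched RefSeq for GRCm38.p6, which gave chromosomes and promoters. For 1082 genes with several probe sets, the one with the highest mean over 15 arrays was taken. A gene was tested if on at least 3 arrays it exceeded that array's 40th percentile (5.34 to 5.58). Percentiles are over probe sets with 1 symbol.

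The fit over 15 arrays used limma 3.58.1 in R 4.3.3, with 1 mean for each group. It had 10 residual degrees of freedom and a prior of 5.33. P-values were 2-sided with Benjamini-Hochberg adjustment over 14822 genes. On simulated data of 14822 genes, the fit found 89% of 2-fold and 100% of 4-fold changes among 200 changed genes, with 11 false calls. The simulated noise was independent between genes and arrays, and few genes changed, while 48.1% were called in the real data. These rates therefore do not give the power or the error rate of this comparison. Python 3.11.15, numpy 2.4.6, pandas 2.3.3 and matplotlib 3.10.9 were used otherwise.

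Named genes are 4 given markers, the 15 largest called differences each way whose groups do not overlap, and, per list, called members with the largest differences (up to 6) and others with their value. Predicted models and immunoglobulin segments were left out of the first 2 kinds (194 called higher, 231 lower). The members and the 43 lists (744 entries, 48 without a probe set of a single gene) were chosen with earlier results of these data known. The SREBP, ISRE and CHR motifs were chosen after the values were seen. Alternatives were the arrays in the fit, the replicate number as a block, the filter, the scaling, the probe set per gene, the variance prior, the threshold and leaving out each array. The same-numbered MDSC and RB arrays did not deviate together (correlations -0.03 to 0.02), so the numbers were not taken as pairs.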

Additional observations from a re-analysis of the deposited data

How the results depend on the processing

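Across the alternatives other than the test against a 1.5-fold difference, 3481 to 4078 genes were higher and 2672 to 4184 lower in MDSC, where the counts as reported were 4057 and 3073. The test against a 1.5-fold difference (limma's treat) left 1449 higher and 1008 lower, since it asks for a larger difference. Leaving out 1 array at a time gave 3602 to 3996 higher and 2672 to 2916 lower. Using the replicate number as a block gave 4025 and 3019, and the numbers do not pair the samples. Of all calls, 56.9% were higher as reported, 50.1% after quantile normalization again and 49% without the filter. Of 602 genes followed, 557 were tested in all 15 alternatives, since the filter at the 60th percentile removed 45, and no called direction reversed where a gene was tested. Of 481 calls among them, 461 were tested in all alternatives, and 430 of these held in all but treat, which ended 165 of the 481. Small lists moved with the filter: 1 eosinophil gene was higher at the 60th percentile, the mast cell median was -0.16 with no filter, and 3 T and NK cell genes were lower with no filter. With the 6 arrays alone, 2 erythroid genes were higher. Dim genes limit the data: the 7358 removed had a median difference of -0.16, and 798 called differences are lower bounds.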
